A study of Homo sapiens with 6 samples.

Results

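The genes described here encode receptor tyrosine kinases that have been linked to resistance of melanoma cells to BRAF inhibitors, with a ligand of one of them. They are the platelet-derived growth factor receptors PDGFRA and PDGFRB, the fibroblast growth factor (FGF) receptors FGFR1, FGFR2 and FGFR3, the hepatocyte growth factor receptor MET and its ligand HGF, the collagen receptors DDR1 and DDR2, and the Wnt receptor ROR2. The genes were taken by name and not by a measured value. Each was read from the probe set that carried its symbol alone, and where several did, from the probe set with the highest mean over the arrays. All 10 were measured, among 18417 genes in the table. RNA came from WM164, a BRAF-mutant melanoma line started from a lymph node metastasis. The Parent group held 3 cultures given the vehicle DMSO, and 3 cultures kept for 16 days in 500 nM PLX4032 (vemurafenib), which inhibits mutant BRAF, made up the IDTC group, short for induced drug tolerant cells. WM164 is 1 line, the length of the DMSO treatment is not given in the labels, and time in culture cannot be told apart from the drug. The labels do not say whether the 3 cultures of a group had separate origins, and the p-values then cover only the variation among these 6 samples, some of it possibly technical.

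Receptor tyrosine kinases are membrane proteins. Most pair up when a ligand binds and phosphorylate each other. They then recruit adaptor proteins that start the RAS to ERK and the PI3K to AKT cascades. In BRAF-mutant melanoma the mutant kinase drives ERK without a receptor, and receptor signalling that restarts ERK or AKT is a known route around BRAF inhibition. DDR1 and DDR2 differ from the others in that their ligand is collagen of the extracellular matrix.

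In the drug-tolerant cells DDR2 and FGFR3 were higher and FGFR1, DDR1 and PDGFRA were lower. DDR2 rose 2.86-fold and FGFR3 rose 1.71-fold, while FGFR1 was 1.56-fold, DDR1 1.54-fold and PDGFRA 1.21-fold lower. PDGFRB, FGFR2, MET, HGF and ROR2 were not called. A call here is an adjusted p under 0.05 in limma, fitted on all genes with Benjamini-Hochberg adjustment, and the direction is always IDTC minus Parent on the log2 scale. So 5 of the 10 were called, 2 higher and 3 lower, where 46.6% of all genes were called, 21.7% higher and 24.9% lower. The groups did not overlap for 7 of the 10, where this held for 54.1% of all genes. A change of 2-fold or more was called for DDR2, 1 of the 10, and for 9.21% of all genes. These shares are near those of all genes and show nothing particular to the set. Its median log2 fold change was -0.14, beside -0.01 over all genes. The called shares of all genes given here also stand beside the list counts further below. In RNA from whole cultures, fewer cells that express a gene and less RNA per cell cannot be told apart.

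**Figure D1:**
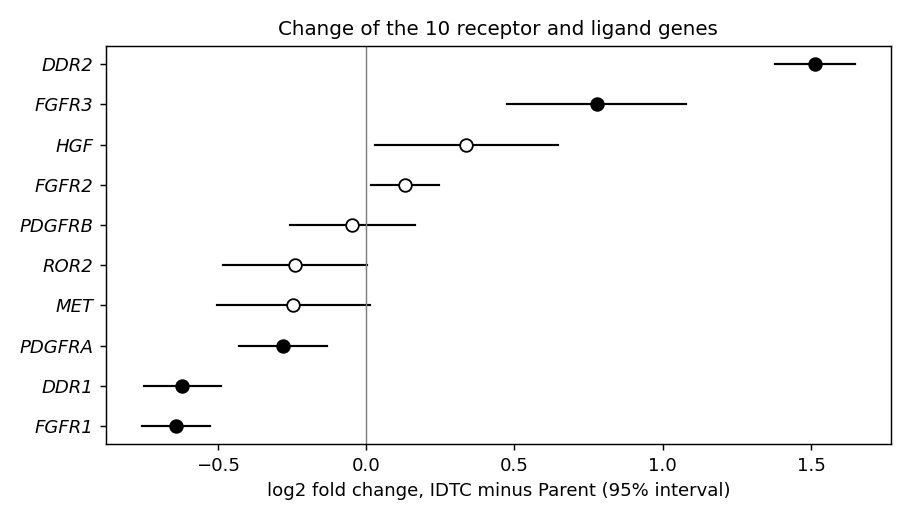
Log2 fold change (IDTC minus Parent) of the 10 genes with its 95% interval from limma, in order of size; filled points were called and open points were not. DDR2 (1.51) and FGFR3 (0.78) lie highest, and FGFR1 (-0.64) and DDR1 (-0.62) lowest.

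The arrays of a group were alike, with r = 0.995 to 0.998 over all genes, against 0.953 to 0.957 between groups. The deposited values are log2 signals with array medians of 6.25 to 6.36 and no detection call. Spread, read as the interquartile range, was at most 3.49 log2 on any IDTC array (lowest 3.31). Every Parent array was wider, from 3.51 up to 3.60. Quantile normalization of all probe sets, which gives arrays equal spread, lost none of the calls named above. FGFR1 (-0.56), DDR1 (-0.55) and FGFR3 (0.77) then changed less, and DDR2 (1.58) and PDGFRA (-0.30) changed more. The signal of a probe set depends on its probes, so levels are compared between arrays and never between genes. The mean signals of PDGFRA, PDGFRB, FGFR2, HGF and ROR2 lay among the dimmest 40% of genes, under 6.35, where background can hide part of a change. These means are over all 6 arrays. FGFR3 was not among them, but its Parent mean (6.41) lay near that bound and Parent 1 (6.13) under it.

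**Figure D2:**
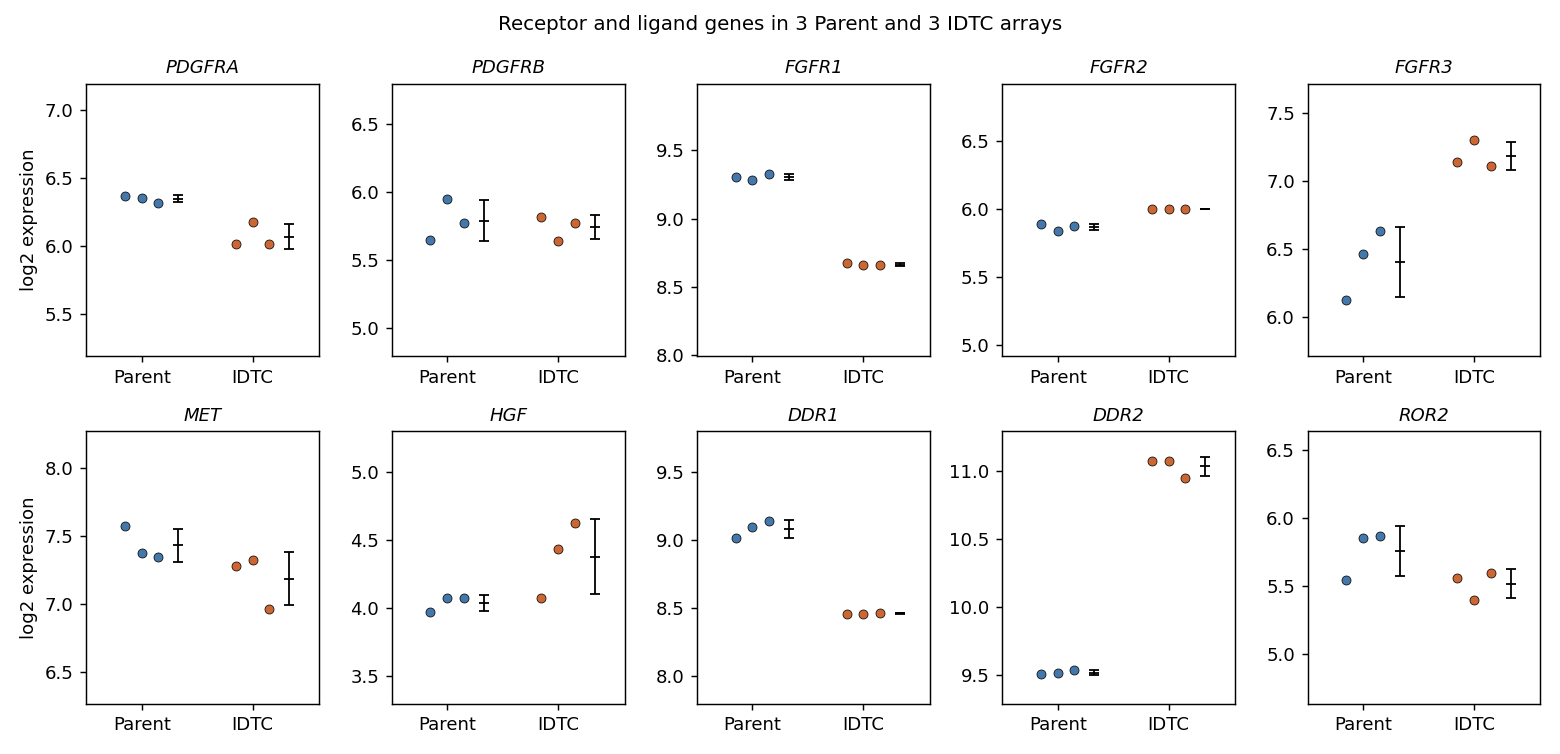
Log2 expression of each gene in the 3 Parent and 3 IDTC arrays (points), with the mean and SD of each group (bar); each axis spans 2 log2 units around its own centre, so that changes, not levels, can be compared between genes. The IDTC points of DDR2 and FGFR3 lie above and those of FGFR1, DDR1 and PDGFRA below all Parent points.

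Promoter sequence was available for 9 of the 10 genes, in 23 windows, one for each start site. The table is from RefSeq (GRCh38.p14), and the 250 bases before each start were read. The window of the most upstream start is shown for 4 of the called genes, to set the promoters of the genes that rose (DDR2, FGFR3) beside those of genes that fell (DDR1, PDGFRA). Each is on the plus strand, 5′ to 3′, with motif matches in capitals. DDR2 is shown at chr1:162630613-162630862, FGFR3 at chr4:1793043-1793292, DDR1 at chr6:30880720-30880969 and PDGFRA at chr4:54229043-54229292.
DDR2: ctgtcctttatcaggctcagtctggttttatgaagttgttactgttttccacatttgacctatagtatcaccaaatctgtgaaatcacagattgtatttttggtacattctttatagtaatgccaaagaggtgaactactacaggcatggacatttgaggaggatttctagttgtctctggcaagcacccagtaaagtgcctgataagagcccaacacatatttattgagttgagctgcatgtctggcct
FGFR3: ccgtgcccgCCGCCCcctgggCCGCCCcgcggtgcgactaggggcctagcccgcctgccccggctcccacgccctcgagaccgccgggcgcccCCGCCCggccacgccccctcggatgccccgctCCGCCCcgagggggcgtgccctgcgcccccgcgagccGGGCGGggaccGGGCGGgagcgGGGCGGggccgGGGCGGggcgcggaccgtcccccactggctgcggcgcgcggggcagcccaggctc
DDR1: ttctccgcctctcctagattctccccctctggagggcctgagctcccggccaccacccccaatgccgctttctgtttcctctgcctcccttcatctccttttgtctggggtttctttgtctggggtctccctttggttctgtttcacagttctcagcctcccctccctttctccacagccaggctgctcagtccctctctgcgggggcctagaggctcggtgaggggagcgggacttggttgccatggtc
PDGFRA: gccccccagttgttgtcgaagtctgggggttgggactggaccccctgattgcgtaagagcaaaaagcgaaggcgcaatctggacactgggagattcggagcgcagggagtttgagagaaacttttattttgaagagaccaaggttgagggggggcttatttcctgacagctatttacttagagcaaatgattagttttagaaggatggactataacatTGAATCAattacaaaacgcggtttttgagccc

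In all, 7 short motifs were searched on both strands, and none of the matches printed above overlapped another. They were the AP-1 site TGANTCA (in 6.57% of 35116 RefSeq windows of this length), the E-boxes CATGTG (9.42%) and CACGTG (6.34%), the TFAP2 motif GCCNNNGGC (19.8%), the ETS motif CCGGAA (14.5%), the TEAD motif GGAATG (11.9%) and the GC box GGGCGG (42.6%). The FGFR3 window held 8 GC boxes and was 86.8% G or C, against a median of 58.0% over all windows. The DDR2 window was 40% G or C and held none of these letters, nor did the windows of its other two starts. The DDR1 window shown held none either, and the PDGFRA window shown held 1 AP-1 match. Neither window stood for all starts of its gene. DDR1 has 8 starts, and most of its other windows held a GC box, TEAD, TFAP2 or AP-1 match. PDGFRA has 2 starts, and the window of the second held 2 GC boxes and no AP-1 match. The promoters of DDR2 and FGFR3, which moved the same way, thus differed in base composition. A match is a string of letters and no evidence of binding, and a window without a match says nothing about a factor.

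DDR2, a receptor for fibrillar collagen that is typical of mesenchymal cells, moved farthest. Its log2 values were 9.51, 9.51 and 9.54 in the Parent arrays and 11.07, 11.07 and 10.95 in the IDTC arrays. All IDTC arrays lay far above all Parent arrays, and the gap was many times the spread within either group. The means were 9.52 ± 0.02 and 11.03 ± 0.07 (SD, n = 3 each), a log2 fold change of 1.51 ± 0.06 (SE, limma adjusted p = 1.33e-06). A dimmer DDR2 probe set, annotated with 2 transcript records where the first has 3, moved the same way, by 1.72 ± 0.08. It read 6.83, 6.85 and 6.86 in Parent and 8.65, 8.66 and 8.38 in IDTC arrays. In both probe sets IDTC 3 was the lowest of its group.

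DDR1, the collagen receptor typical of epithelial cells, moved the other way. Its values were 9.01, 9.09 and 9.14 in Parent arrays and 8.46, 8.46 and 8.47 in IDTC arrays, without overlap. The log2 fold change was -0.62 ± 0.05 (limma adjusted p = 6.4e-05). Its 3 probe sets list the same transcript records, and their profiles, each centred on its own mean, differed by at most 0.0096 log2 on any array. They are 1 measurement made several times rather than separate evidence. The within-array difference of DDR2 minus DDR1 shifted by 2.13 log2 between the groups (2-sided exact permutation test, p = 0.1, and 0.125 adjusted over 5 pairs, with 0.1 the lowest p that 3 against 3 arrays can give). That difference, whose size has no meaning as a ratio of levels, was 0.44 ± 0.05 in Parent and 2.57 ± 0.07 in IDTC arrays.

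**Figure D3:**
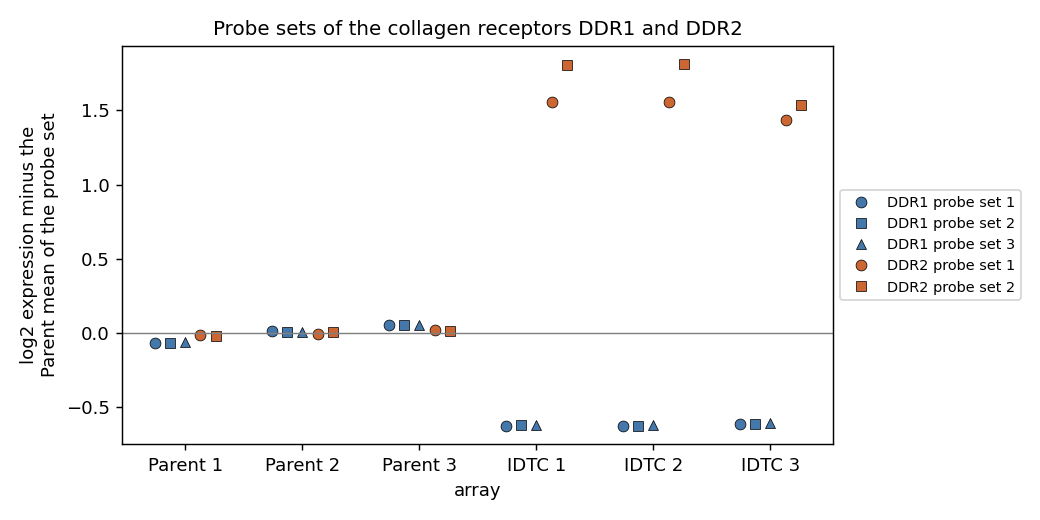
Log2 expression of each DDR1 (blue) and DDR2 (orange) probe set on each array, minus the Parent mean of that probe set. On each IDTC array both DDR2 probe sets lie above and the 3 DDR1 probe sets below their Parent mean.

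The collagen genes that encode ligands of these receptors were mostly not called. Of the 10, 9 were not called and 1 rose, with a median of -0.01. COL5A2, a chain of fibrillar type V collagen, rose by 0.28 ± 0.09 (limma adjusted p = 0.036). That call was lost without Parent 1 (0.20), Parent 3 (0.31), IDTC 2 (0.26) or IDTC 3 (0.23). Of the 10 genes, 8 lay among the dimmest 40%. COL1A1, the main fibrillar collagen chain and a ligand of DDR2, had means of 7.37 and 7.35.

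Among the FGF receptors, FGFR1 and FGFR3 went in opposite directions. FGFR1, a receptor of FGF1 and FGF2 in many mesenchymal and melanoma cells, read 9.30, 9.28 and 9.32 in Parent and 8.67, 8.66 and 8.66 in IDTC arrays. The groups were tight and well apart. It fell by 0.64 ± 0.05 (limma adjusted p = 2.86e-05).

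FGFR3, a receptor of the same ligand family, read 6.13, 6.46 and 6.63 in Parent and 7.14, 7.30 and 7.11 in IDTC arrays. The Parent arrays were spread over 0.50 log2, yet the highest of them stayed below the lowest IDTC array. FGFR3 rose by 0.78 ± 0.13 (limma adjusted p = 0.0017), and by 0.64 without Parent 1, the lowest array. The FGFR1 minus FGFR3 difference shifted by -1.42 (exact permutation test, 2-sided, p = 0.1, and 0.125 adjusted over the 5 pairs).

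FGFR2, whose splice forms serve epithelial and mesenchymal cells, read 5.89, 5.84 and 5.88 in Parent and between 5.9997 and 6.0009 in the IDTC arrays. The groups did not overlap, but the difference was 0.13 ± 0.05 with a 95% interval of 0.02 to 0.25, and it was not called (limma adjusted p = 0.0635). The FGFR1 minus FGFR2 difference shifted by -0.77, with the same exact p of 0.1. FGFR2 was called after the arrays were re-centred on the tested genes, at 0.19.

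The other receptors and co-receptors of this family moved down where they moved. Of the 9 measured, none rose and 4 were not called, while 5 fell (median -0.33, beside -0.01 over all genes). Among all genes 21.7% were called higher and 24.9% lower. FGFRL1, a receptor that binds FGF and lacks the kinase, fell from 9.49 ± 0.03 to 7.60 ± 0.09, a 3.71-fold change (limma adjusted p = 8.86e-07). The heparan sulfate proteoglycan gene SDC3 fell by 1.47 ± 0.07. FGFR4, the remaining kinase of the family, fell by 0.84 ± 0.09. Its groups, with means of 7.04 ± 0.11 and 6.20 ± 0.13, did not overlap.

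Most of the 18 FGF ligand genes (15) were not called, while 2 rose and 1 fell (median -0.07). FGF7, also called keratinocyte growth factor and a ligand of the epithelial form of FGFR2, read 4.13, 4.01 and 4.29 in Parent and 6.12, 6.10 and 5.86 in IDTC arrays. It rose by 1.88 ± 0.10 (limma adjusted p = 5e-06), the largest rise among the FGF ligands. Of the 18 genes, 13 lay among the dimmest 40%, FGF7 among them. FGF1, which binds all FGF receptors, rose from 6.97 ± 0.05 to 8.10 ± 0.14, and FGF2, a growth factor for melanocytes and melanoma cells, fell from 8.24 ± 0.33 to 7.41 ± 0.08 (limma adjusted p = 0.0032). The 2 FGF genes that rose and the 1 that fell had changes of 0.83 log2 or more, and the next largest was that of FGF5, at 0.25 and not called. The list held 6 called genes without IDTC 3 and 5 after either quantile normalization.

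PDGFRA, the receptor of most PDGF dimers and a marker of mesenchymal cells, read 6.37, 6.35 and 6.31 in Parent and 6.01, 6.17 and 6.01 in IDTC arrays. The groups did not overlap, and the fall of 0.28 ± 0.06 (limma adjusted p = 0.00809) was the smallest of the 5 called changes. PDGFRB, which marks fibroblasts and pericytes, read 5.65, 5.95 and 5.77 in Parent and 5.81, 5.64 and 5.77 in IDTC arrays. These groups overlapped throughout. Its difference was -0.05 with a 95% interval of -0.26 to 0.17 (limma adjusted p = 0.718). The sign turned without Parent 2 (0.03), without IDTC 2 (0.0049) and after re-centring on the tested genes (0.02). The PDGFRB minus PDGFRA difference shifted by 0.23, with overlapping groups (exact permutation test, 2-sided, p = 0.2), and by 0.15 without Parent 1.

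Of the 4 PDGF ligand genes, 1 fell and 3 were not called, and 3, PDGFC among them, lay among the dimmest 40%. PDGFC, which encodes a ligand of PDGFRA, fell from 5.79 ± 0.13 to 5.41 ± 0.01 (limma adjusted p = 0.00401). The count of called genes was 2 without Parent 1 and 3 after quantile normalization of all probe sets.

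MET, the receptor whose activation by HGF from stromal cells can sustain melanoma cells under BRAF inhibition, read 7.57, 7.38 and 7.35 in Parent and 7.28, 7.32 and 6.97 in IDTC arrays. The IDTC arrays were the lower ones, but the nearest arrays of the groups lay close together, and IDTC 3 stood below the rest. The difference was -0.25 ± 0.11 with a 95% interval of -0.50 to 0.01 and was not called (limma adjusted p = 0.111). Without IDTC 3 it was -0.13.

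HGF was dim, with values of 3.97, 4.07 and 4.07 in Parent and 4.07, 4.44 and 4.62 in IDTC arrays. IDTC 1 gave the same value as Parent 3, and IDTC 2 and 3 were higher. The difference was 0.34 ± 0.13 (95% interval 0.03 to 0.65, limma adjusted p = 0.0725). It was 0.22 without IDTC 3, and it was called without IDTC 1 (0.49) and after either re-centring of the arrays (0.32 and 0.40). After quantile normalization of all probe sets (0.23) or of the tested genes (0.24) the difference was smaller and not called. The HGF minus MET difference shifted by 0.58 (exact permutation test, 2-sided, p = 0.1, and 0.125 adjusted), and by 0.35 without IDTC 3.

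Around this pair, 1 of 8 genes for proteases that activate HGF, their inhibitors and the MET-related receptor system rose and 7 were not called (median -0.04). The riser was MST1, the ligand of the MET-related receptor MST1R, at 5.99, 6.02 and 5.91 in Parent and 6.77, 6.97 and 6.42 in IDTC arrays (0.75 ± 0.13, limma adjusted p = 0.00244). MST1 has near-identical copies in the genome that can share its probes, so its value is uncertain. Of the 8 genes, 7 lay among the dimmest 40%, MST1 among them. The receptor gene MST1R had means of 5.71 and 5.67 and was not called.

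ROR2, a receptor for WNT5A that acts outside the beta-catenin pathway, read 5.54, 5.85 and 5.87 in Parent and 5.56, 5.40 and 5.59 in IDTC arrays. Parent 1 lay within the IDTC range and the other Parent arrays above it. The difference of -0.24 ± 0.10 (95% interval -0.48 to 0.00) was not called (limma adjusted p = 0.099), though it was without Parent 1 (-0.34), after re-centring on all probe sets (-0.26) and after quantile normalization of all probe sets (-0.28) or of the tested genes (-0.24).

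Genes that act with ROR2 went both ways. Calls were made for 10 of the 12 measured, 5 of them higher and 5 lower (median -0.17). Of all genes 46.6% were called, 21.7% higher and 24.9% lower. Only 3 of the 12 were among the dimmest 40%, and brighter genes were called more often. The planar polarity genes VANGL1 and VANGL2, which encode partners of ROR2 in Wnt signalling, went opposite ways. VANGL1 fell from 9.29 ± 0.11 to 8.10 ± 0.11, and VANGL2 rose from 6.46 ± 0.17 to 7.45 ± 0.01. The Wnt receptor gene FZD5 fell by 0.68 ± 0.07. WNT5A, the ligand, fell by 0.31 ± 0.07 (limma adjusted p = 0.0072), and ROR1, the closest relative of ROR2, rose by 0.35 ± 0.05 (limma adjusted p = 0.00113); both were chosen for their role after their values had been seen.

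Adaptors and effectors of receptor tyrosine kinases, not all of them shared by the 10 genes, were called in 12 of 16 cases. Of the 16, 8 were higher, 4 lower and 4 not called (median 0.23). Over all genes 46.6% were called, 21.7% higher and 24.9% lower. None of the 16 was among the dimmest 40%. When the dimmest 40% of genes were left out, 7647 of 11051 were called, among them 13 of the 16. GAB1, the docking protein that carries the signal of MET, read 8.56, 8.43 and 8.34 in Parent and 10.48, 10.42 and 10.23 in IDTC arrays. It rose by 1.94 ± 0.09 (3.83-fold, limma adjusted p = 2.55e-06), and by 1.09 when its probe sets were averaged. The insulin receptor substrate genes IRS2 and IRS1 rose by 1.51 ± 0.06 and 1.48 ± 0.07. Their products bring PI3K to the insulin receptor, which is not among the 10. The exchange factor genes SOS2 and SOS1, which load RAS with GTP, rose by 1.19 ± 0.07 and 0.76 ± 0.08, whereas GRB2, the adaptor that binds SOS to receptors, fell by 0.50 ± 0.05. SOS1, SOS2 and GRB2 were named after their values had been seen.

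Genes that limit receptor signalling split evenly, with 6 of 12 called, 3 higher and 3 lower (median 0.14). ERRFI1, which encodes an inhibitor of ERBB receptors, fell from 10.55 ± 0.08 to 8.57 ± 0.18 (3.95-fold, limma adjusted p = 3.55e-06). PTPN1, a phosphatase that acts on receptors, fell by 1.15 ± 0.05. The ubiquitin ligase gene CBLB rose by 1.23 ± 0.05.

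Other receptor tyrosine kinases outside the ERBB, TAM and Eph families were mostly not called. No call was made for 14 of the 18 measured, with 3 higher and 1 lower (median 0.05), and 13 lay among the dimmest 40%. NTRK2, a neurotrophin receptor, rose from 5.45 ± 0.02 to 5.95 ± 0.04 (limma adjusted p = 0.000144). The rises of RYK (0.21 ± 0.06) and PTK7 (0.20 ± 0.07), both Wnt-related receptors, were small. The count of 4 called dropped to 1 or 2 in several alternatives. It was 1 after re-centring on all probe sets and without Parent 2 or Parent 3, and 2 without any of the IDTC arrays. RYK was not called without Parent 2 (0.19), Parent 3 (0.20) or IDTC 2 (0.19) and was 0.33 after quantile normalization of the tested genes, and PTK7 lost its call whichever array was left out (0.16 to 0.24).

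**Figure D4:**
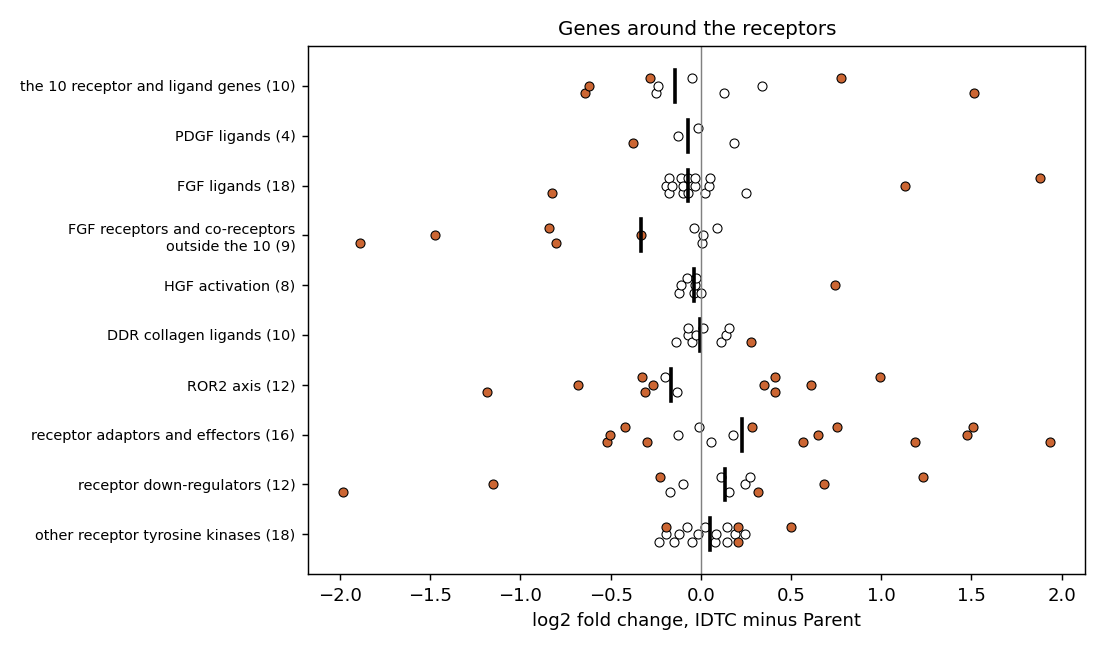
Log2 fold change (IDTC minus Parent) of each measured gene in 10 lists, with the number of genes in brackets; orange points were called, open points were not, and the bar is the median of the list. The FGF receptors and co-receptors (median -0.33) lie lowest and the adaptors and effectors (median 0.23) highest.

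Several of these receptors mark other cell types, so the markers of such cells were read on the same arrays. Melanocyte markers, which define the labelled line, were bright. Their summed linear signal was 15268 to 15509 in Parent and 25123 to 26676 in IDTC arrays, none of the 7 measured was among the dimmest 40%, and 5 rose, 1 fell and 1 was not called. The melanoma antigen gene MLANA rose by 1.45 ± 0.05 and the neural crest factor gene PAX3 by 1.22 ± 0.07. S100B fell by 0.85 ± 0.07, and MITF was not called (-0.04). PMEL (means of 12.52 and 13.40) and MLANA made up most of the rise of the sum.

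Fibroblast markers, whose cells also express DDR2, PDGFRA, PDGFRB and HGF, were called in 2 of 10 cases. Their summed signal was 756 to 766 in Parent and 615 to 661 in IDTC arrays. LUM, a matrix proteoglycan, fell by 0.89 ± 0.14 (means of 8.11 and 7.21), almost all of the fall of the sum. FAP, a fibroblast protease, rose by 0.26 ± 0.08. The FAP call was lost without Parent 1 (0.20), Parent 2 (0.25), IDTC 1 (0.23) or IDTC 2 (0.26), and after quantile normalization of all probe sets (0.16) or of the tested genes (0.17). Of the 10 genes, 8 were among the dimmest 40%, with no detection call to say whether they lay above background. The part of such cells in the changes of DDR2, PDGFRA and HGF was not tested.

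Epithelial markers, whose cells express DDR1 and MET, were called in 1 of 9 cases. Their summed signal was 1884 to 2036 in Parent and 759 to 876 in IDTC arrays, and KRT18 alone was called (-2.14 ± 0.07), with 2 called without IDTC 3. KRT18, which encodes a keratin of simple epithelia, had means of 10.54 in Parent and 8.40 in IDTC arrays. Its fall made up almost all of the fall of the sum. EPCAM and CDH1, which define epithelial cells, were among the dimmest 40% and had log2 fold changes of 0.05 and 0.02. The part of such cells in the change of DDR1 was not tested. Pericyte and smooth muscle markers were called in 2 of 8 cases, with a summed signal of 2646 to 2774 in Parent and 1858 to 1956 in IDTC arrays. CSPG4, a proteoglycan that melanoma cells also carry, fell by 2.09 ± 0.08 (means of 9.88 and 7.79), most of the fall of the sum. MCAM, short for melanoma cell adhesion molecule, had the highest signal in the sum (means of 10.45 and 10.35) and was not called. The sum is thus no measure of pericytes. ACTA2, smooth muscle actin, was higher by 0.32 ± 0.11 with overlapping groups, and its call was lost without any one of the arrays except IDTC 3 (0.24 to 0.43 over the 6). Limma called none of 8 endothelial markers, and none had an unadjusted p under 0.05. Their summed signal was 340.5 to 374.7 in Parent and 343.5 to 388.0 in IDTC arrays.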

How the data were processed

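RNA of 3 Parent and 3 IDTC cultures was measured on Affymetrix whole-transcript arrays, 1 per sample. The deposited table holds log2 expression of 33297 probe sets that the authors had normalized. Per the submitters' processing notes, Affymetrix Expression Console, RMA and Partek 6.6 were used, with roles and genome build not given in the sources used here. RMA can give arrays equal values for a probe set, which narrows the spread within a group.

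Platform annotation gave 1 symbol for 19460 probe sets, several for 1754 and none for 12083. The brightest probe set stood for a gene. Groups and replicate numbers came from the titles. All 18417 genes were fitted with limma 3.58.1 in R 4.3.3 (lmFit, eBayes, 2-sided, no covariate, no filter), checked on simulated data. The alternatives re-scaled the arrays, dropped dim genes, averaged probe sets, changed the variance model, added a replicate block or left out an array.

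The genes, lists and tests were chosen with earlier results of these data known. Named genes are the 10, then up to 3 called genes with the largest change from each list, or 1 where none was called, and up to 2 called genes from each marker list. Additions, named with values seen, are COL1A1, MST1R, FGF5, WNT5A, ROR1, SOS1, SOS2, GRB2, EPCAM, CDH1, MCAM, PMEL, S100B and MITF. Of 156 other genes in the 14 lists, 145 were measured.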

Additional observations from a re-analysis of the deposited data

How the results depend on the processing

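The calls and directions of DDR2, FGFR3, FGFR1, DDR1 and PDGFRA held under every alternative that tested them, and PDGFRA, like PDGFRB, FGFR2, HGF and ROR2, was not tested without the dimmest 40% of genes. Over the alternatives the log2 fold change ranged from 1.49 to 1.62 for DDR2, 0.64 to 0.89 for FGFR3, -0.66 to -0.53 for FGFR1, -0.65 to -0.52 for DDR1 and -0.33 to -0.22 for PDGFRA. Whether the replicate numbers pair the samples cannot be told from 3 samples a group. Same-numbered samples had deviations that correlated at 0.31, -0.19 and 0.26, and not every sample correlated best with its own number. With the replicate number as a block, 8855 genes were called in place of 8588, MET (-0.25, adjusted p = 0.0463) and HGF (0.34, adjusted p = 0.0246) were called among the 10, and no call among them was lost. HGF was also called after re-centring on all probe sets (0.32) or on the tested genes (0.40). It was not called after quantile normalization of all probe sets (0.23) or of the tested genes (0.24). Its change ranged from 0.22 to 0.49 with single arrays left out. ROR2 was called after re-centring on all probe sets (-0.26) and after quantile normalization of all probe sets (-0.28) or of the tested genes (-0.24), and ranged from -0.34 to -0.18 with single arrays left out. FGFR2 was called after re-centring on the tested genes (0.19). PDGFRB, not called anywhere, ranged from -0.12 to 0.034 with single arrays left out, changing sign without Parent 2 (0.034) and without IDTC 2 (0.0049), and was 0.017 after re-centring on the tested genes. Both settings on the tested genes alone were chosen after seeing the data; re-centring there gave 4846 genes higher and 4017 lower, against 3996 and 4592. Of 196 list counts under the alternatives, 37 differed from the main count by more than 1.5 times, and of 385 changes of other named genes, 31 were no longer called and none changed sign. With 3 arrays a group, precision is limited throughout.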

Other observations

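The RMA values held repeated numbers between arrays. In the IDTC group 4 of the 10 genes (PDGFRA, FGFR1, FGFR2 and DDR1) had a pair of arrays within 0.001 log2 of each other, and in the Parent group none had. Over all genes this held for 1484 of 18417 (8.06%) in the IDTC arrays and for 2028 in the Parent arrays. The IDTC values of FGFR2 lay within 0.0011 log2 of each other, and those of DDR1 within 0.0073. The moderated variance of limma, which draws on all genes, kept the SE of FGFR2 at 0.05.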
